A study of Homo sapiens with 10 samples.

Results

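The UGT2B family of human chromosome 4 was followed here through 7 protein-coding genes, UGT2B17, UGT2B15, UGT2B10, UGT2B7, UGT2B11, UGT2B28 and UGT2B4 in order along the chromosome, out of 20033 protein-coding genes in GENCODE release 44. The genes were chosen by name, and every acetylation peak over their bodies or within 50 kb to either side was taken. These windows partly overlap and together span 839 kb of GRCh38. The cells were C4-2B, a castration-resistant adenocarcinoma line of the LNCaP lineage, and C4-2BER, an enzalutamide-resistant line with neuroendocrine-like (NE-like) traits that was derived from C4-2B by continuous exposure to this antiandrogen. Each is a single established line, and both therefore share the genetic background of C4-2B. Histone H3 acetylated at lysine 27 (H3K27ac) or lysine 18 (H3K18ac), marks of active promoters and enhancers, was profiled by ChIP-Seq in 2 libraries per mark and line, beside 1 input library per line. The authors merged the libraries of a group before calling peaks, so each mark and line has 1 list with 1 value per peak. No replicate error can be given, and no difference between the lines could be tested. The value used for every peak is its fold enrichment, a ratio of ChIP to local background that is scaled within its own list. C4-2BER was kept in enzalutamide.

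The H3K27ac lists held 68034 peaks in C4-2B and 72971 in C4-2BER, and the H3K18ac lists 198451 and 197948. Their median fold enrichments lay between 2.55 and 3.47. Depth is unknown because these lists carry no counts of reads, and a site without a peak may still carry the mark below the caller's threshold. Promoters of luminal prostate genes kept H3K27ac peaks in both lines, with a highest fold of 20.3 in C4-2B and 13.8 in C4-2BER for KLK3, and 19.0 and 12.1 for KRT8. Of the neuroendocrine markers, ENO2 had 4.00 and 14.3 and SYP 8.16 and 5.67, while CHGA had no H3K27ac promoter peak in either line, so these markers only partly follow the label of C4-2BER.

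UDP-glucuronosyltransferases sit in the membrane of the endoplasmic reticulum and join glucuronic acid, taken from UDP-glucuronic acid, to small lipophilic molecules, which makes them soluble and ready for export. UGT2B15 and UGT2B17 are the main enzymes that conjugate testosterone, dihydrotestosterone and their metabolites in the prostate, and so remove active androgen from the cell. In prostate cells that respond to them, androgens are known to lower the expression of both genes. The family grew by duplication, and its members remain very similar in sequence. Among the 7 coding sequences, the closest pairs were UGT2B11 and UGT2B28, at 97.0% identity, and UGT2B17 and UGT2B15, at 96.5%. The most distant pair, UGT2B15 and UGT2B28, still matched at 84.0% of aligned bases.

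The H3K27ac peaks found inside UGT2B17 lie on sequence that UGT2B15 also carries, and these copies are shown because peaks at them differed between the lines. The sequences below come from GRCh38, are read along the gene's own strand (the minus strand for both), and show in capitals the bases that differ between the copies. The first pair is the middle of a peak in intron 4 of UGT2B17 (chr4:68553867-68554146) and its counterpart in intron 3 of UGT2B15 (chr4:68657145-68657424), 280 bases with 8 differences.
UGT2B17 intron 4: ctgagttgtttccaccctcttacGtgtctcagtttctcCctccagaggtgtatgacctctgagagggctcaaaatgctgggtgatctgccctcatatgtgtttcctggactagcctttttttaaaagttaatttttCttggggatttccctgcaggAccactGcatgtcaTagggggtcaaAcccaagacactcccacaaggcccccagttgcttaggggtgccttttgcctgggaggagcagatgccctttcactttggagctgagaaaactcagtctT
UGT2B15 intron 3: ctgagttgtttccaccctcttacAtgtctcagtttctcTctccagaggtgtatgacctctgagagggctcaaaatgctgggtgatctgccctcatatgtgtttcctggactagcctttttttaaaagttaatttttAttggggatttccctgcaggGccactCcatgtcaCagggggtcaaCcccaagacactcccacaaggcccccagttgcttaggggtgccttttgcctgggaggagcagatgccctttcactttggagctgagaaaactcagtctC
The second pair lies upstream of the exon that holds the start codon, at chr4:68569568-68569842 for UGT2B17 and chr4:68671763-68672042 for UGT2B15, with 23 differing positions.
UGT2B17 upstream of the coding exon: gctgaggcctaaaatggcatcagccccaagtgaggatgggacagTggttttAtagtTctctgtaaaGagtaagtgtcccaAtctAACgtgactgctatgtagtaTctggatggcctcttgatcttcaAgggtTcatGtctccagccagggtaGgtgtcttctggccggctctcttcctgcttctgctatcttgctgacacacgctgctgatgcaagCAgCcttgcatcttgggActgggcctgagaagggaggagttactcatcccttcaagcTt
UGT2B15 upstream of the coding exon: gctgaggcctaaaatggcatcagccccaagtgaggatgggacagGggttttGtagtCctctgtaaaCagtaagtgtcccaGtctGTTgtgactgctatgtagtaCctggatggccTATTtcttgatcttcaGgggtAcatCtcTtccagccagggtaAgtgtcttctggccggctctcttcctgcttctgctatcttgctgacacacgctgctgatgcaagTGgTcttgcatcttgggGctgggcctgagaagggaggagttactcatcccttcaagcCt

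The promoter of UGT2B15, the member with the strongest peak near its canonical start site, is shown for the 250 bases before the start site (chr4:68670653-68670902, minus strand, RefSeq on GRCh38.p14). The capitals mark a match to the forkhead motif TGTTTAC, here on the opposite strand, and a match to AGAACA, the hexamer that an androgen response element repeats. The promoter of UGT2B7 (chr4:69096224-69096473, plus strand, RefSeq on GRCh38.p14) is shown beside it because the H3K27ac peak before its start site differed in extent between the lines. That peak ended 1876 bp before the start site in C4-2B and 2699 bp before it in C4-2BER, so it did not reach the bases shown. The UGT2B7 promoter held none of the motifs searched.
UGT2B15 promoter: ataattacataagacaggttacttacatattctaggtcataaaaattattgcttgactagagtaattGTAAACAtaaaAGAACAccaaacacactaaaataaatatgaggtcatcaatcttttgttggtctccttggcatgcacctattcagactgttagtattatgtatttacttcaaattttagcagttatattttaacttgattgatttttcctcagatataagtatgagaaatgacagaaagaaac
UGT2B7 promoter: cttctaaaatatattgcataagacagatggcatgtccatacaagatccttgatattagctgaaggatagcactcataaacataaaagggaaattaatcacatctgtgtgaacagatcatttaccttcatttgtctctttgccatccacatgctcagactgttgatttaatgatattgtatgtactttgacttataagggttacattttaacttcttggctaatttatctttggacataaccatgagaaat

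In all, 23 H3K27ac peaks of C4-2B and 16 of C4-2BER fell in the UGT2B windows, covering 22.9 kb and 23.9 kb. For H3K18ac there were 34 peaks over 25.1 kb in C4-2B and 39 over 33.1 kb in C4-2BER. The median H3K27ac peak in the windows was 1240.5 bp wide in C4-2BER and 658 bp in C4-2B. Over the whole H3K27ac lists it was 1180 bp and 1032 bp, so peaks of C4-2BER were wider there too. C4-2BER thus had fewer H3K27ac peaks in the windows over about the same length. The lower number rests on weak peaks of C4-2B, most of them outside the genes, since the order turned round to 6 in C4-2B and 7 in C4-2BER at a minimum fold of 4, to 9 and 12 at a minimum −log10 q-value of 5, and to 5 and 7 in the gene bodies alone. The fold enrichment of H3K27ac ran from 2.30 to 8.24 with a median of 3.16 in C4-2B and from 2.61 to 8.86 with a median of 3.73 in C4-2BER. For H3K18ac it ran from 2.31 to 9.21 with a median of 3.16 in C4-2B and from 2.11 to 6.83 with a median of 2.90 in C4-2BER. The strongest H3K27ac peak exceeded 78.0% of its list in C4-2B and 82.9% in C4-2BER, and the strongest H3K18ac peak 97.8% and 97.5%. Peaks took up 2.73% of the windows for H3K27ac in C4-2B and 2.85% in C4-2BER, and 2.99% and 3.95% for H3K18ac. The median window of this kind around a protein-coding gene was covered to 6.16% and 7.89% for H3K27ac and to 14.5% and 16.2% for H3K18ac. The UGT2B windows together were thus covered less than this median in both lines. The members differed, however. For H3K27ac the UGT2B7 window in C4-2B was covered more than those of 46.3% of genes, and that of UGT2B15 in C4-2BER more than 41.1%. The UGT2B4 window was covered more than only 10.9% in C4-2B and 6.93% in C4-2BER. The most covered member window, that of UGT2B15 for H3K18ac in C4-2BER, reached 7.14%.

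**Figure D1:**
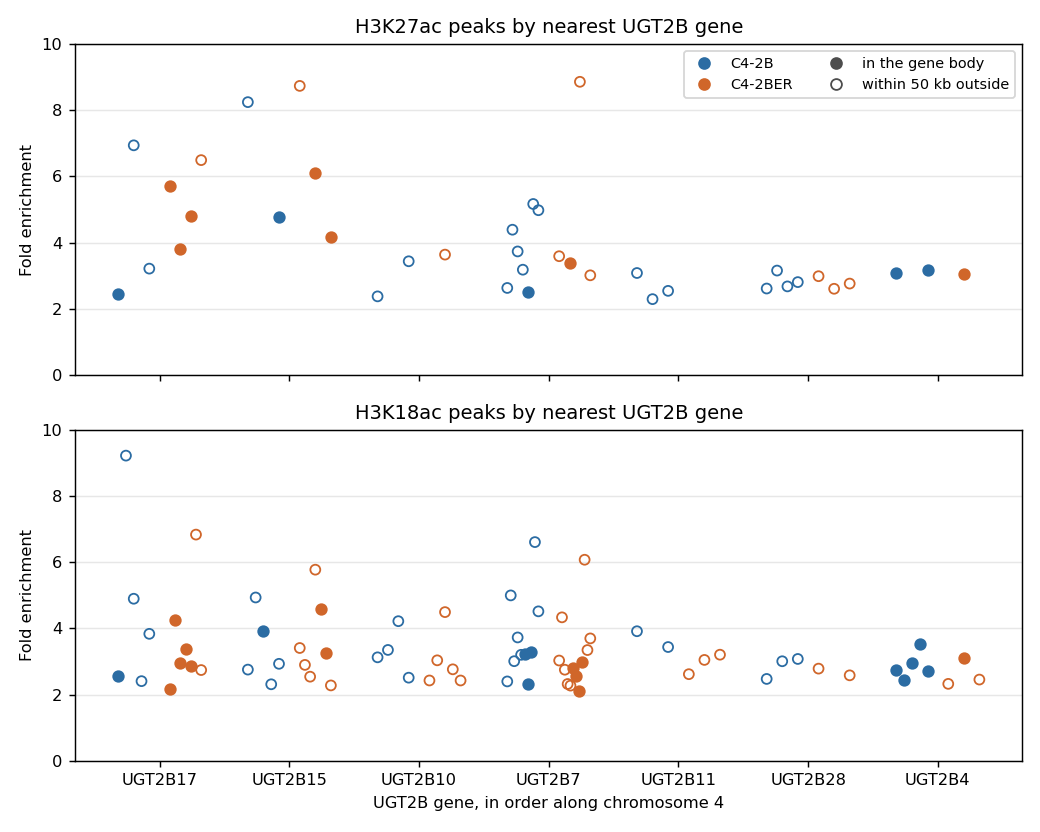
Fold enrichment (y axis) of every H3K27ac peak (top) and H3K18ac peak (bottom) in the UGT2B windows, placed at the gene it lies in or nearest to (x axis), with C4-2B in blue and C4-2BER in orange, filled points for peaks in a gene body and open points for peaks outside it. Each point is 1 peak of a pooled list with no error; for H3K27ac the gene-body peaks of UGT2B17 reach 2.45 in C4-2B and 5.73 in C4-2BER, and no peak lies in the bodies of UGT2B10, UGT2B11 or UGT2B28.

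UGT2B17, the gene whose body gained the most H3K27ac coverage of the 7, is annotated at chr4:68537173-68576413 on the minus strand, with a non-coding exon upstream of the exon that holds the start codon. Its body held 1 H3K27ac peak in C4-2B and 3 in C4-2BER, and covered length went from 1.05% to 12.3% of the gene. In intron 4, chr4:68553778-68554234 had an H3K27ac peak of fold 4.82 in C4-2BER and none in C4-2B. In intron 3, chr4:68561497-68564966 had a broad peak of 3470 bp and fold 3.82 in C4-2BER and again none in C4-2B. In intron 1, chr4:68569330-68570210 had a peak in both lines, of fold 2.45 in C4-2B and 5.73 in C4-2BER, a log2 ratio of 1.22. Thus all 3 gene-body regions were higher in C4-2BER or found there alone, while the share of all H3K27ac regions that were called increased was 30.5%. Increased here means a ratio of 2 or more in favour of C4-2BER, or no peak in C4-2B, and decreased means the reverse.

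H3K18ac peaks lay at the same sites in UGT2B17. The intron 4 peak (chr4:68553888-68554128, fold 2.85) and a pair of peaks at the ends of the intron 3 region (chr4:68561501-68562537, fold 3.38, and chr4:68564359-68564956, fold 2.97) were found in C4-2BER only. The intron 1 site (chr4:68569393-68570179) had a fold of 2.57 in C4-2B and 4.24 in C4-2BER, a log2 ratio of 0.72 that stayed under the limit of 2-fold. A further intron 1 peak of fold 2.17 at chr4:68573160-68574005, below the median of its list, was listed in C4-2BER only. By the same rule, 26.2% of all H3K18ac regions were increased, against 4 of the 5 in the body of UGT2B17. Only 1 input library per line is listed for both marks, so the marks are not fully independent.

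Downstream of UGT2B17 the lines looked alike. An element 31.6 kb past the gene's end (chr4:68503397-68505575) was among the 3 strongest of the windows in all 4 lists. Its length-weighted H3K27ac fold was 5.64 in C4-2B, where it was split into a peak of 3.22 and one of 6.94, and 6.49 in C4-2BER. For H3K18ac (chr4:68503331-68505560) the values were 7.35 and 6.83, with the highest single peak of all 4 lists in the windows, 9.21, in C4-2B. An H3K18ac region at the edge of the window, chr4:68488575-68491048, overlapped the neighbouring gene TMPRSS11E and had a fold of 3.61 in C4-2B and 2.74 in C4-2BER.

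UGT2B15, at chr4:68646597-68670652 on the minus strand, carried the strongest promoter of the family in both lines. Its H3K27ac region 570 bp upstream of the start site (chr4:68671222-68674274) had a fold of 8.24 in C4-2B and 8.73 in C4-2BER, a log2 ratio of 0.08, and the peak widened from 1794 bp to 3053 bp. The H3K18ac region there (chr4:68671335-68674426) had a fold of 4.93 and 5.77, a log2 ratio of 0.23. Neither peak reached into the 250 bases printed above. Inside the gene, a broad region of intron 2 (chr4:68663971-68667516) had an H3K27ac fold of 4.77 in C4-2B and 6.10 in C4-2BER and an H3K18ac fold of 3.91 and 4.58. The values of these shared elements were higher in C4-2BER but within the limit of 2-fold. By contrast, a narrow peak in intron 3 was found in C4-2BER only, with an H3K27ac fold of 4.18 (chr4:68657099-68657461) and an H3K18ac fold of 3.24 (chr4:68657133-68657449). H3K27ac covered 11.8% of the gene in C4-2B and 16.2% in C4-2BER.

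Farther from UGT2B15 the only peaks were of H3K18ac. Upstream, peaks at chr4:68691875-68692242 (fold 2.90) and chr4:68693743-68693998 (fold 3.41) were listed in C4-2BER only, and a region at chr4:68682746-68683654 had a fold of 2.75 in C4-2B and 2.54 in C4-2BER. Downstream, a region 325 bp past the gene's end had a fold of 2.31 and 2.28, and chr4:68614680-68615111, over a processed pseudogene, had a fold of 2.93 in C4-2B and no peak in C4-2BER.

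**Figure D2:**
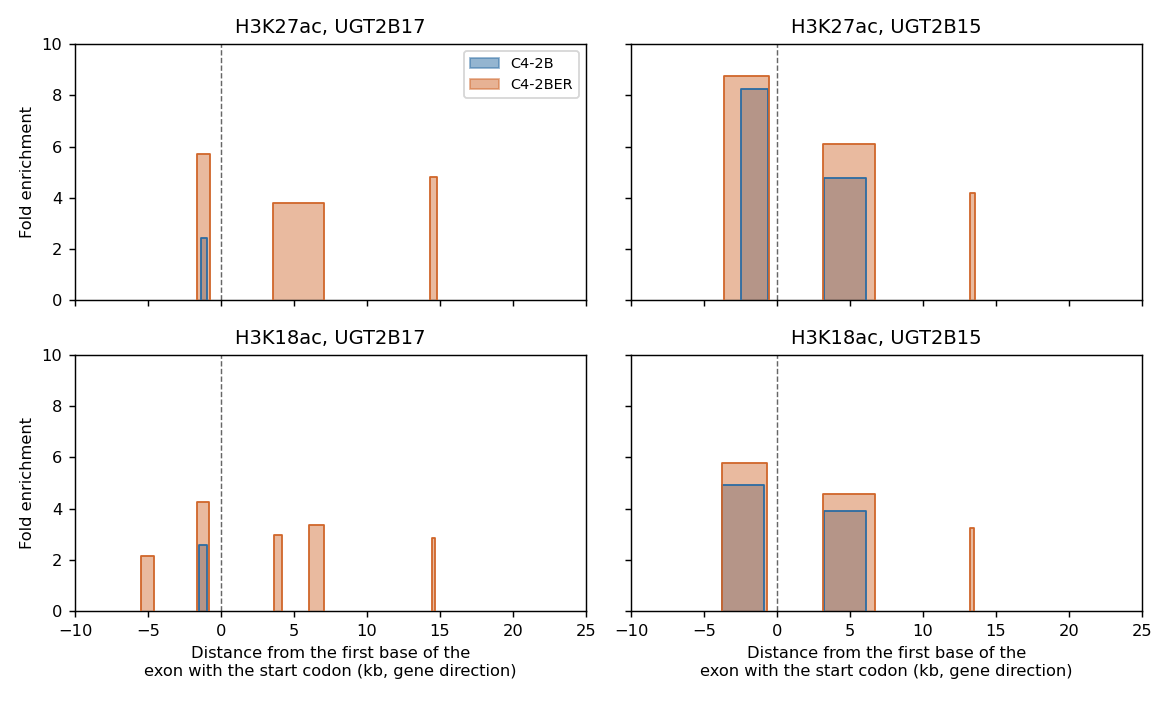
Peaks of H3K27ac (top) and H3K18ac (bottom) along UGT2B17 (left) and UGT2B15 (right), drawn as blocks from start to end with their fold enrichment as height, against the distance in kb from the first base of the exon with the start codon, in the direction of the gene, with C4-2B in blue and C4-2BER in orange. Both genes show a block before the coding exon, signal between about 3 kb and 7 kb, and a narrow block beyond 13 kb. The signal between 3 kb and 7 kb is a broad block in both lines for UGT2B15. For UGT2B17 it is present in C4-2BER only, as a broad block of H3K27ac and a pair of short blocks of H3K18ac. The narrow block is present in C4-2BER only for both genes and marks.

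Measured from the exon with the start codon, the elements of both genes lay in the same order and at similar distances. For H3K27ac in C4-2BER, the peak before the coding exon ended at position -782 bp in UGT2B17 and -570 bp in UGT2B15. The broad intronic peak began 3582 bp and 3136 bp downstream, and the narrow peak began 14314 bp and 13191 bp downstream. Aligned to the rest of the locus, the 3 gene-body regions of UGT2B17 had these UGT2B15 elements as their best match. The narrow element matched over 457 aligned columns at 98.2% identity, with 8 substitutions and no gap. The broad element matched at 91.9% over 3521 columns, and the upstream element at 90.9% over 758. The far part of the UGT2B15 promoter region matched instead at 86.8% to chr4:68576697-68578751, before the canonical start site of UGT2B17, where no list had a peak. The narrow element is thus present as a near-copy in both genes, and was listed in C4-2BER only in both. The other elements differed between the copies in C4-2B, where UGT2B15 had H3K27ac folds of 8.24 and 4.77 and UGT2B17 had 2.45 and no peak.

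Such similarity bears on what the reads can tell. The share of 50-base stretches that occur only 1 time in the genome was 51.5% in the narrow UGT2B17 element and 46.6% in its UGT2B15 counterpart. In the broad pair it was 88.1% and 89.0%, and in the upstream pair 85.3% and 87.7%. The authors kept alignments with a mapping quality of at least 10, and the read length is not given in the sources used here. Reads that fit both copies of the narrow element equally well would mostly fail this filter and be lost. The part of lost or misplaced reads in the paired peaks was not tested.

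UGT2B7, a broad-range enzyme that conjugates morphine, bile acids and steroids including androgens, is annotated at chr4:69051363-69112987 on the plus strand, with a canonical start site at 69096474. Its window held fewer H3K27ac peaks in C4-2BER, with 7 peaks over 8.65 kb in C4-2B and 4 over 4.21 kb in C4-2BER. The peaks listed in C4-2B only were all upstream of the gene. At chr4:69035025-69036292, in the pseudogene UGT2B26P, the H3K27ac fold was 3.74 in C4-2B, above the median of its list, with no peak in C4-2BER. Peaks at chr4:69042138-69042370 (fold 3.19, also in UGT2B26P) and chr4:69019871-69021008 (fold 2.63, over the start of the pseudogene UGT2B27P) were likewise listed in C4-2B only. The last of these matched the start of UGT2B10 (chr4:68815376-68816530) at 93.0% identity, where no list had a peak. Over the small UGT2B26P peak H3K18ac was found in both lines, with a fold of 3.72 in C4-2B and 2.32 in C4-2BER at chr4:69041341-69042441, and beside it chr4:69043885-69044440 had 3.20 and 2.27. A wider element at chr4:69025309-69028910 was shared, with an H3K27ac fold of 4.39 in C4-2B and 3.59 in C4-2BER, and H3K18ac there was among the 3 strongest of C4-2B, with 4.99 and 4.33 at chr4:69025231-69027454. The other upstream H3K18ac regions were shared too, with 3.01 and 2.75 at chr4:69028678-69028913 and 2.40 and 3.03 at chr4:69012913-69013194.

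Close to UGT2B7 the picture was mixed. The strongest H3K27ac peak of C4-2BER in all the windows lay 1757 bp past the gene's end, at chr4:69114744-69115921, with a fold of 8.86 against 5.17 in C4-2B, a log2 ratio of 0.78. H3K18ac at that element was 6.60 in C4-2B and 6.07 in C4-2BER, so the marks did not move together there. A small peak 4017 bp past the gene (chr4:69117004-69117271) had an H3K18ac fold of 3.34 in C4-2BER only. At chr4:69124857-69125268 H3K27ac fell short of the limit in the other direction, with a fold of 4.98 in C4-2B and 3.02 in C4-2BER, and H3K18ac was 4.51 and 3.69. In front of the canonical start site, H3K27ac had a fold of 2.52 in C4-2B at chr4:69093366-69094598 and 3.38 in C4-2BER at chr4:69093100-69093775. The C4-2BER peak is higher but shorter and ends 2699 bp before the start site, outside the promoter window of 2000 bp, so a rule that looks only at that window calls the promoter decreased although the region as a whole had a log2 ratio of 0.43. H3K18ac at this region was 3.27 in C4-2B and 2.97 in C4-2BER, again with a C4-2BER peak that stopped short of the window. The region also matched the UGT2B4 element at chr4:69500676-69501435 at 73.7%. Elsewhere in the annotated body, H3K18ac was 3.22 and 2.81 at the distal start site and 2.33 and 2.56 at chr4:69058098-69059151, and a peak of 2.11 at chr4:69078831-69079140 was listed in C4-2BER only.

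UGT2B28, an androgen-conjugating enzyme, and UGT2B11, whose substrates are less well known, are nearly identical neighbours. Neither had a peak of either mark in its body or at its start site in any list. The UGT2B11 window (gene at chr4:69199951-69214748, minus strand) held 3 H3K27ac peaks in C4-2B and 0 in C4-2BER. They lay 23652 bp to 30078 bp upstream of the start site, with folds of 2.55, 2.30 and 3.09 at chr4:69238400-69239050, chr4:69240013-69240767 and chr4:69244826-69245096, all below the median fold of the C4-2B list. A peak of fold 2.62 upstream of UGT2B28 (gene at chr4:69280475-69295050, plus strand), at chr4:69268704-69268947, was also listed in C4-2B only. The 3 H3K27ac regions downstream of UGT2B28 were shared and nearly level, with folds of 3.16 and 2.99, 2.68 and 2.61, and 2.81 and 2.77 in C4-2B and C4-2BER. For H3K18ac, 4 regions around these genes were shared. At chr4:69244804-69245270 its fold was 3.91 in C4-2B and 2.62 in C4-2BER, and at chr4:69267487-69269417 it was 2.47 and 2.78. It was 3.43 and 3.20 at chr4:69169230-69169522, and 3.07 and 2.58 at chr4:69320131-69321964. A peak 8678 bp upstream of UGT2B11 (chr4:69223426-69224841, fold 3.05) was found in C4-2BER only, and one at chr4:69315148-69315468 (fold 3.01) in C4-2B only.

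These weak sites are also repeats of each other. The H3K27ac regions at chr4:69238400 and chr4:69240013 matched sequence downstream of UGT2B28 at 94.8% and 95.2%, where a single H3K27ac peak of fold 2.81 in C4-2B and 2.77 in C4-2BER overlaps both matches. The one upstream of UGT2B28 matched the sequence of the C4-2BER-only H3K18ac peak near UGT2B11 at 95.5%. Only 70.9% of 50-base stretches in UGT2B11 and 72.3% in UGT2B28 were unique, compared with 95.3% in UGT2B7 and 98.3% in UGT2B4. The part of this low uniqueness in the absence of peaks over these genes was not tested.

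UGT2B10, which conjugates nicotine and other amines, lies at chr4:68815994-68832023 on the plus strand and likewise had no peak over its body or start site. Its nearest H3K27ac peak was 37942 bp downstream of the start site in C4-2B (chr4:68853936-68854248, fold 2.38, not listed in C4-2BER) and 48390 bp downstream in C4-2BER, at a shared region of fold 3.44 and 3.64 (chr4:68864337-68866604). For H3K18ac, the first of these sites was shared, with 3.35 in C4-2B and 3.03 in C4-2BER, and a site at chr4:68861329-68861662 was the strongest, with 4.22 and 4.49. A peak of fold 2.76 at chr4:68865945-68866528 was found in C4-2BER only. The remaining H3K18ac regions, at chr4:68773487-68774184 and chr4:68880867-68881256, differed by a log2 ratio of -0.37 and -0.05.

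UGT2B4, a liver enzyme for bile acids, lies at chr4:69480165-69526014 on the minus strand, with a canonical start site at 69495905 and a distal one at 69526014. The only site in its body with peaks in both lines was a narrow one at the distal start site, with an H3K27ac fold of 3.09 in C4-2B and 3.07 in C4-2BER and an H3K18ac fold of 2.75 and 3.12. Between these start sites, peaks were found in C4-2B only. These were 1 of H3K27ac (chr4:69500811-69501150, fold 3.17) and 4 of H3K18ac. The H3K18ac peaks were at chr4:69500858-69501197 (fold 3.52), chr4:69503188-69503629 (fold 2.95), chr4:69520455-69521675 (fold 2.43) and, 198 bp before the canonical start site, at chr4:69496103-69496346 (fold 2.73). Thus 4 of 5 H3K18ac regions in the body of UGT2B4 were decreased, where 23.5% of all H3K18ac regions were. A peak downstream at chr4:69436797-69437048 (fold 2.45) was in C4-2BER only. At the upstream edge of the window, chr4:69575439-69576876 had 3.44 in C4-2B, where the peak itself lay just outside the window, and 2.32 in C4-2BER.

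**Figure D3:**
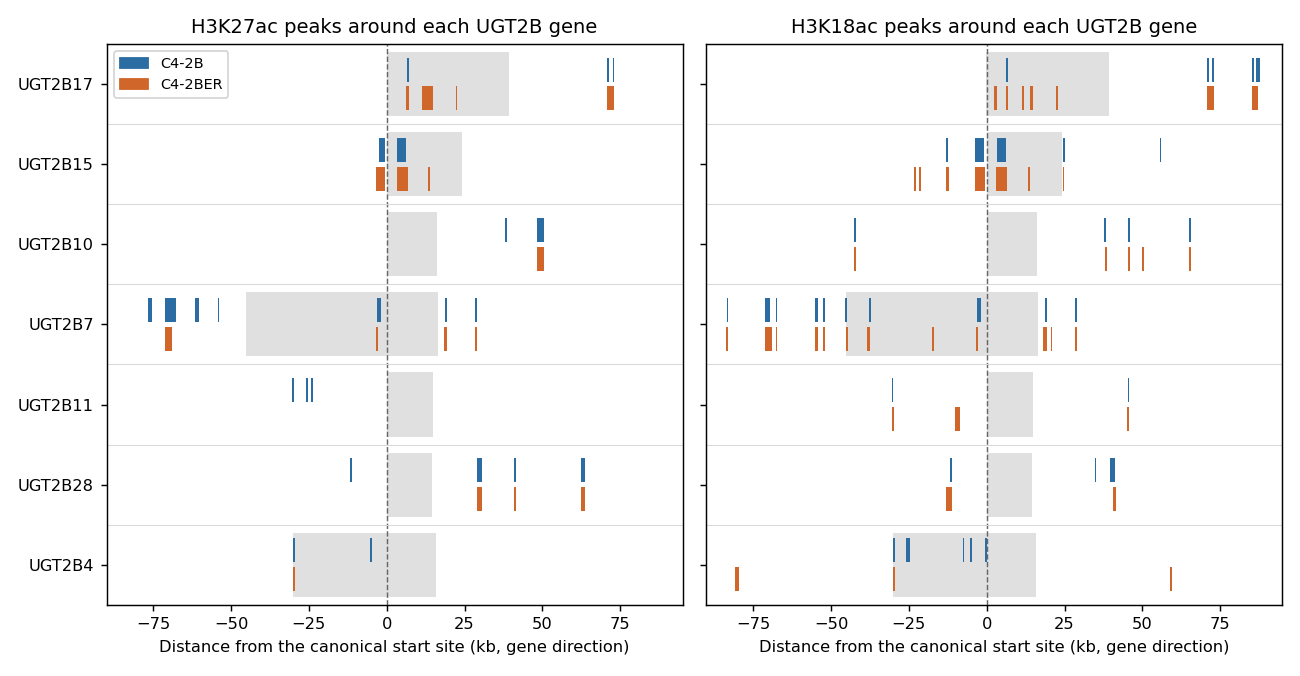
Position of every H3K27ac peak (left) and H3K18ac peak (right) relative to the canonical start site of the UGT2B gene it lies in or nearest to (x axis, kb in the direction of the gene), with C4-2B in blue above C4-2BER in orange and the annotated gene body in grey. Peaks under 0.6 kb are drawn 0.6 kb wide so that they can be seen. Inside UGT2B17 and UGT2B15 more H3K27ac peaks are of C4-2BER than of C4-2B. Those upstream of UGT2B7, UGT2B11 and UGT2B28 are mostly of C4-2B.

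Over the whole family, peaks that overlapped between the lines were merged into 25 H3K27ac regions and 45 H3K18ac regions. For H3K27ac, 4 regions (16%) were increased in C4-2BER, all inside UGT2B17 and UGT2B15, and 9 (36%) were decreased, all found in C4-2B only and around the other 5 genes. The shares over all 89877 H3K27ac regions were 30.5% increased and 22.7% decreased. The excess of decreased over increased H3K27ac regions turned round with 3 increased and 2 decreased at a minimum fold of 4, 5 and 2 at a minimum −log10 q-value of 5, and 4 and 1 in the gene bodies, and was gone with 4 and 4 within 20 kb of the genes. For H3K18ac, 12 regions (26.7%) were increased and 6 (13.3%) decreased, against 26.2% and 23.5% of all 247646 regions. With so few regions, these shares describe the family and do not set it apart. At the 13 H3K27ac regions shared by both lines, the median log2 ratio was 0.08, with 7 above 0, while the median over all shared regions was -0.17. At the 27 shared H3K18ac regions it was -0.12, with 8 above 0, equal to the median of -0.12 over all shared regions, but in the gene bodies alone it was 0.16. Rescaling C4-2BER by a robust line through all shared regions moved the overall H3K27ac median from -0.17 to -0.03. The UGT2B medians were then 0.13 for H3K27ac, with 8 of 13 above 0, and -0.02 for H3K18ac, with 13 of 27 above 0, and no region changed its call.

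**Figure D4:**
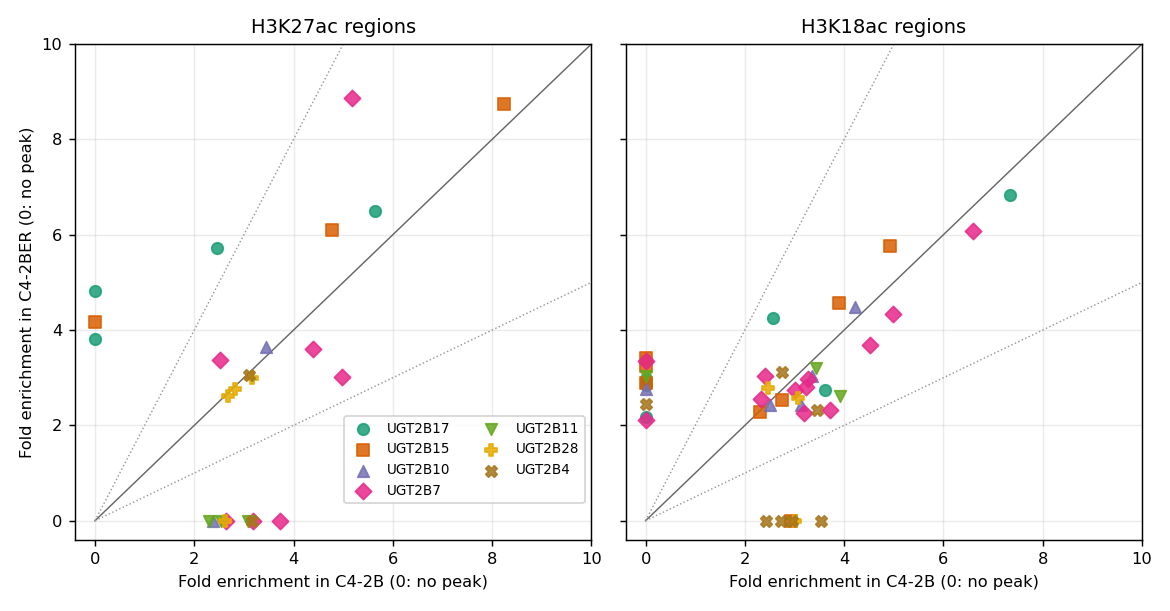
Fold enrichment in C4-2B (x axis) and C4-2BER (y axis) of each merged region of the UGT2B windows, for H3K27ac (left) and H3K18ac (right), with the symbol giving the nearest gene and 0 standing for no peak in that line. The solid line marks equal values and the dotted lines a ratio of 2; the 4 H3K27ac regions above the upper dotted line belong to UGT2B17 and UGT2B15, and 9 H3K27ac regions lie at 0 for C4-2BER.

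The marks were compared region by region. Of the 4 increased H3K27ac regions, 3 overlapped an increased H3K18ac region, and the fourth was the intron 1 element of UGT2B17, where H3K18ac was higher by less than 2-fold. Of the 9 decreased H3K27ac regions, 4 had no H3K18ac region at all and 1, in UGT2B4, overlapped a decreased one. Such overlaps were not counted over all H3K27ac regions, so these counts describe the family and do not set it apart. The decreased H3K27ac regions had a median fold of 2.63 in C4-2B, and the 3 found in C4-2BER only had a median of 4.18. Among these 3 are the narrow elements of UGT2B17 and UGT2B15, which are near-copies. Folds are scaled within each list, and such medians were not taken over all regions, so this contrast is a description only.

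Base composition differed with the calls, in the UGT2B windows as in the lists at large. Over all regions, the median GC content was 49.6% in increased and 55.2% in decreased H3K27ac regions, and 49.0% and 54.9% for H3K18ac. In the UGT2B windows the medians were 47.8% and 53.3% for H3K27ac and 49.6% and 54.1% for H3K18ac. Of the 25 H3K27ac regions, 11 fell in the fifth of all regions with the lowest GC content, where 36.4% of all regions were increased and 15.8% decreased, while 1 and 4 of these 11 were. Its part in the calls was not tested.

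The promoters add little to this, because most members had none that was marked. A promoter peak was one overlapping 2000 bp before to 500 bp after any annotated start site. For H3K27ac 3 of 7 members had one in C4-2B (UGT2B15, UGT2B7 and UGT2B4) and 2 of 7 in C4-2BER, compared with 73.8% and 74.2% of all protein-coding genes. For H3K18ac 3 of 7 had one in each line, compared with 87.2% in C4-2B and 85.2% in C4-2BER. None of the 7 was increased in either mark, where 3.49% of all genes were for H3K27ac and 1.92% for H3K18ac. Only UGT2B7 was decreased for H3K27ac and none for H3K18ac, where 8.27% and 5.25% of all genes were. For UGT2B17 the outcome depends on the start site chosen. With windows set at the exon that holds the start codon, a choice made after seeing the data, its promoter was increased for H3K27ac, from 2.45 to 5.73, and higher but within 2-fold for H3K18ac, from 2.57 to 4.24. By this rule 4.46% of all genes were increased for H3K27ac and 3.53% for H3K18ac, and 1 of 7 and 0 of 7 members were. In the other direction UGT2B7 was decreased for H3K27ac, and UGT2B7 and UGT2B4 for H3K18ac, where 7.45% and 7.54% of all genes were.

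Sequences of 4 of the 7 promoters were at hand, for UGT2B15, UGT2B10, UGT2B7 and UGT2B11, each from 250 bases before to 50 bases after the start site. UGT2B10 and UGT2B11 matched at 90.1% of aligned positions, and the other pairs at 61.5% to 69.5%. The letters searched, on both strands, were AGAACA alone and with an inverted copy 3 bases apart (the androgen response element), TGTTTAC and TGTTTGC (forkhead factors such as FOXA1), GTTAAT alone and with an inverted copy 1 base apart (HNF1), TTGCGCAA (C/EBP), TATAAA (the TATA box) and CACGTG (the E-box). In the UGT2B15 promoter, printed above, AGAACA lay from -172 to -167 and the forkhead match from -183 to -177, counted from the start site. AGAACA was present in 14.8% and TGTTTAC in 3.42% of 35116 RefSeq promoters of the same length. UGT2B10 and UGT2B11 held TATAAA 3 and 2 times far upstream of the start, a match found in 11.5% of promoters, and UGT2B7 held no match. In the middle 300 bases of the 25 H3K27ac regions, GTTAAT was found in 5, including both copies of the narrow element, compared with 6.50% of all regions. AGAACA was found in 4 (16.4% of all regions), TGTTTAC in 3 (4.76%) and TATAAA in 9 (12.8%). None held TGTTTGC (4.84%) or CACGTG (4.88%). Nor was there a match to the full androgen response element (0.0056%), the full HNF1 motif (0.0011%) or TTGCGCAA (0.058%). The full motifs and TTGCGCAA are so rare among all regions that their absence from these 25 tells nothing. Some of these regions are copies of each other, so the counts are a description only.

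The remaining enzymes and transporters of glucuronidation and androgen inactivation were read at their promoters as a list of 31 genes. For H3K27ac, 11 had a promoter peak in C4-2B and 12 in C4-2BER, where 73.8% and 74.2% of all genes had one. Of the 31, 2 were increased and 2 decreased, where 3.49% and 8.27% of all genes were, with a median log2 ratio of -0.39 at the 11 with a peak in both lines, against -0.50 over all genes. For H3K18ac, 5 were increased and 1 decreased, where 1.92% and 5.25% of all genes were, with a median of -0.30 at 17 genes against -0.33. The 5 were UGT1A7, UGT1A8, UGT1A10, ABCC2 and CYP3A5, each with a weak peak, of fold 2.13 to 3.35, in C4-2BER only. The UGT1A genes among them overlap at the same locus, so the 5 are not independent. UGT8, which makes galactosylceramide, was decreased in both marks, with an H3K27ac fold of 18.3 in C4-2B and 5.74 in C4-2BER and an H3K18ac fold of 9.38 and 4.68. ABCC2, an exporter of glucuronides, was the only gene increased in both, with weak peaks of 2.48 and 2.56 in C4-2BER only. UGT2A1, UGT2A2 and UGT2A3, the other family members at this locus, had no promoter peak in any list, nor had SULT1B1 beside them. On the other side, TMPRSS11E had only weak H3K18ac, 3.29 in C4-2B and 3.92 in C4-2BER, while YTHDC1 beyond it had an H3K27ac fold of 24.3 and 18.4.

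Among 16 factors known to act on UGT2B genes, 1 was increased and 1 decreased for H3K27ac, where 3.49% and 8.27% of all genes were. For H3K18ac 0 were increased and 1 decreased, where 1.92% and 5.25% of all genes were. FOXA1, a forkhead factor of luminal cells, had a promoter fold of 29.0 in C4-2B and 15.0 in C4-2BER for H3K27ac, a log2 ratio of -0.95 just inside the limit, and 14.0 and 8.23 for H3K18ac. The median log2 ratio of the list was -0.50 for H3K27ac, the same as over all genes, so the value of FOXA1 lay below this general shift. ESR1 had an H3K27ac promoter peak of 5.30 in C4-2BER only, while its H3K18ac was 3.12 and 3.54. NR1I2, the pregnane X receptor, had a weak H3K27ac peak of 2.14 in C4-2B only, and NR1I3, the constitutive androstane receptor, an H3K18ac peak of 2.39 in C4-2B only.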

How the data were processed

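Chromatin crosslinked with DSG and formaldehyde was immunoprecipitated for each acetylated residue and sequenced. The submitters' processing notes name bcl2fastq 2.17, Trimmomatic 0.33, Bowtie2 2.2.3, Picard, deepTools and hg38. Per the study's methods, blacklisted regions, alignments with a mapping quality under 10 and duplicates were removed, libraries were merged and broad peaks were called with macs2. The deposited broad peaks carry a fold enrichment, meaning a ratio over background, as the authors' caller wrote it. The −log10 q-value deposited beside it served as a filter in 1 alternative, and the −log10 p-value was not used. The read length and the caller's thresholds are not given in the sources used here. Each list pools its libraries, so no replicate could be left out and no test was run.

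Peaks of both lines that shared at least 1 bp were merged into regions over the whole genome, each with the mean fold of its peaks weighted by length. Ratios were taken from the values as deposited, which are scaled to the background of their own list and not between lines. Genes and exons came from GENCODE release 44. Uniqueness counts 50-base stretches present 1 time on either strand of the main GRCh38 chromosomes. No peak lay past a chromosome's end in that reference. Copies within the locus were found with blastn 2.17.0, keeping matches of at least 200 bp over at least 50% of a region, and sequences were aligned end to end with Biopython 1.88. Calculations ran in numba 0.67.0, pandas 2.3.3, numpy 2.4.6, statsmodels 0.14.6 and scipy 1.17.1 under Python 3.11.15, and figures in matplotlib 3.10.9. The merging, the rescaling and the uniqueness count were tested on simulated data.

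All 7 genes are described in every list. Regions with a ratio of at least 2, or found in 1 line with a fold above the median of its list, the 3 strongest peaks of each list and every peak over a member promoter are given in full, and of the pathway list the genes changed in both marks are named. The genes, the pathway and regulator lists and the motifs were chosen with earlier results of these data known. The search of the region centres, the copies, the uniqueness and the coding-exon windows were added after seeing the data. Some genes of the marker and regulator lists are counted but their values are not reported here.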

Additional observations from a re-analysis of the deposited data

How the results depend on the processing

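Results were recomputed under 13 other settings, 2 of which were added after seeing the data. Of the values for the family as a whole, 80 were classed as the same and 50 as moved. Those that moved were mostly counts that shrank with a stricter filter or a smaller window. The class called the same was broad and held sizeable shifts. The median H3K27ac log2 ratio at shared regions was 0.39 in the gene bodies, against 0.08 in the whole windows. Increased H3K18ac regions numbered 18 with 100 kb to each side, against 12. The order of the lines in H3K27ac peaks, the balance of increased and decreased H3K27ac regions and the sign of the median H3K18ac log2 ratio did turn round under the settings given next. With a minimum fold enrichment of 4, the H3K27ac peaks numbered 6 over 10.1 kb in C4-2B and 7 over 11.7 kb in C4-2BER, and the H3K18ac peaks 7 over 7.23 kb and 7 over 13.7 kb. H3K27ac regions were then 3 increased and 2 decreased, and H3K18ac regions 2 increased and 1 decreased, and 1 member had a promoter peak in each list. With a minimum −log10 q-value of 5, H3K27ac had 9 peaks over 15.0 kb in C4-2B and 12 over 21.5 kb in C4-2BER, H3K18ac had 12 over 13.2 kb in C4-2B and 13 over 16.4 kb in C4-2BER, 5 H3K27ac regions were increased and 2 decreased, 6 H3K18ac regions were increased and 4 decreased, and again 1 member had a promoter peak in each list. Within 20 kb of the genes, H3K27ac had 12 peaks over 11.2 kb in C4-2B and 11 over 15.6 kb in C4-2BER, H3K18ac had 18 over 15.5 kb and 22 over 21.5 kb, and 4 H3K27ac regions were increased and 4 decreased. In the gene bodies alone there were 5 H3K27ac peaks over 5.05 kb in C4-2B and 7 over 9.65 kb in C4-2BER, and 10 H3K18ac peaks over 7.89 kb and 12 over 9.92 kb. There, 4 H3K27ac regions were increased and 1 decreased, 6 H3K18ac regions were increased and 4 decreased, and the median H3K18ac log2 ratio at shared regions was 0.16 against -0.12 in the whole windows. The cause of these turns was not tested beyond the smaller number of peaks that each setting leaves. With the canonical start site only, 2 members had an H3K27ac promoter peak in C4-2B and 1 in C4-2BER, and for H3K18ac 3 and 1 had one. Regions with at least 80% unique 50-base stretches numbered 16 for H3K27ac and 33 for H3K18ac, both narrow elements of UGT2B17 and UGT2B15 being among those left out. Of these, 2 H3K27ac regions were increased and 6 decreased, so the excess of decreased H3K27ac regions remained here. For H3K18ac 7 were increased and 5 decreased. All 28 values for single promoters kept their side of the 2-fold limit. They are ratios at promoters with a peak in both lines, so the decreased H3K27ac call of UGT2B7 is not among them. That call depends on the window. With 1000 bp to both sides of every start site, 2 members had an H3K27ac promoter peak in each line, and UGT2B7 was no longer one of them. No paired analysis was possible because the libraries of each group were merged before peaks were called. The merged lists also limit the whole report: depth is unknown, weak peaks found in 1 line may reflect it, and no value has an error.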
